A study of Homo sapiens with 9 samples.

Results

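The genes described here are 10 regulators of the G1 phase of the cell cycle, taken as a named list: the D-type cyclin genes *CCND1* and *CCND3*, the E-type cyclin genes *CCNE1* and *CCNE2*, the cyclin-dependent kinase (CDK) genes *CDK2*, *CDK4* and *CDK6*, and the CDK inhibitor genes *CDKN1A* (p21), *CDKN1B* (p27) and *CDKN2C* (p18). All 10 were among the 19918 gene symbols of the count files and all 10 were among the 12810 genes with enough counts to be tested. The RNA that was sequenced came from VCaP, an established line of prostate cancer epithelial cells. The cells of 2 groups had received si025 or si033, siRNAs that both target exon 1 of the long non-coding RNA *IGF1R-AS1*, and the third group had received a control siRNA. Per the labels, each transfection used 100 pmol of siRNA on cells in suspension, the cells were collected after 72 h, and 1.3 µg of total RNA entered a stranded library preparation. Each group held 3 libraries, so the question asked of every gene was whether its level differed from control with each siRNA and whether the siRNAs differed from each other.

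Passage through G1 is driven by D-type cyclins, which activate CDK4 and CDK6, and by E-type cyclins, which activate CDK2. These kinases phosphorylate the retinoblastoma protein, and the release of E2F transcription factors then allows the genes of DNA replication to be transcribed. The INK4 inhibitors, among them p18, bind CDK4 and CDK6, whereas the CIP/KIP inhibitors p21 and p27 bind cyclin-CDK complexes and restrain CDK2. In prostate cancer cells, androgen receptor signalling is known to feed into this module through the D-type cyclins.

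Library totals ran from 11649811 to 28492259 counts, with 14735 to 15474 genes detected, and the biological coefficient of variation across all tested genes was 4.13%. The *IGF1R-AS1* transcript itself was not analysed here, so the depletion of the target was not checked. The study describes its knockdown experiments as biological replicates, while the labels do not say whether the libraries of a group came from separate cultures, and p-values measure the spread between these libraries. The 8 luminal prostate markers summed to 7900 to 8126 CPM, counts scaled to a common library size, in control, 9579 to 9947 with si025 and 6675 to 7039 with si033. The 5 fibroblast markers summed to 16.7 to 18.9 CPM in control, 36.7 to 44.0 with si025 and 8.90 to 11.5 with si033, most of it *LUM*, while *COL1A2*, *DCN* and *PDGFRB* reached at most 1, 4 and 6 counts in any library. Of the endothelial markers, *CDH5* was at 0, *PECAM1* reached 5 counts and *VWF* 46, and the set summed to 0.619 to 2.25 CPM over all libraries. Of the leukocyte markers, *CD3E* was at 0, *PTPRC* reached 3 counts and *CD14* 35, and the set summed to 0.496 to 1.87 CPM. Because the samples were bulk RNA, fewer cells in a state of the cycle and less RNA per cell could not be told apart for any gene below.

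In control cells the module was dominated by *CDK4* and *CCND1*. Per kilobase of counted exons, *CDK4* stood at 134 ± 4.75 CPM per kilobase (RPKM, mean ± SD, n = 3) and *CCND1* at 131 ± 2.68 RPKM, with overlapping libraries. This length covers all exons of a gene symbol and not those of a single transcript. *CDK2* at 37.6 ± 1.07 RPKM and *CDKN1B* at 35.3 ± 1.64 RPKM also overlapped each other. Below them came *CCNE2* at 18.8 ± 0.625 RPKM, *CDKN1A* at 11.8 ± 0.434 RPKM, *CDKN2C* at 9.92 ± 0.123 RPKM and *CCND3* at 5.12 ± 0.194 RPKM. *CCNE1* at 2.56 ± 0.303 RPKM and *CDK6* at 0.117 ± 0.0286 RPKM closed the order. Apart from the overlapping pairs, the libraries of neighbours in this order did not overlap. The values that follow are CPM scaled by the trimmed mean of M-values (TMM), which compare 1 gene between groups and not genes with each other.

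Most of the module moved, but not as a unit. With si025, 7 of the 10 genes were called at an adjusted p under 0.05 in edgeR, 2 higher and 5 lower, where 61.7% of all tested genes were called, 32.9% higher and 28.8% lower. With si033, 8 of 10 were called, 3 higher and 5 lower, against 54.8% of all tested genes, 26.9% higher and 27.8% lower. The balance of direction over all called genes depended on scaling: 53.4% were higher with si025, and 41.3% with an offset for gene length, while 49.2% were higher with si033, and 59.3% when scaled by library totals alone. The libraries of 8 members with si025 and of 7 members with si033 did not overlap those of control, a pattern seen for 65.7% and 59.5% of all tested genes. The median log2 fold change of the members was −0.12 with si025 and −0.11 with si033, beside 0.02 and 0.00 over all tested genes. The median size of the change, regardless of sign, was 0.37 with si025 and 0.21 with si033, beside 0.26 and 0.22. More genes of the transcriptome were thus called than not, and both comparisons share the control libraries. The members fell into 3 patterns that the siRNAs had in common or in opposition: *CCNE2*, *CDK2* and *CDK4* were lower with both, *CDKN1A* rose with si025 and fell with si033, and *CDK6* and *CDKN2C* were lower with si025 and higher with si033. *CCND1* was called with si025 alone, *CDKN1B* and *CCNE1* with si033 alone, and *CCND3* with neither. For *CDKN1B* the difference between the siRNAs was itself not called (log2 −0.05, edgeR adjusted p = 0.449).

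**Figure D1:**
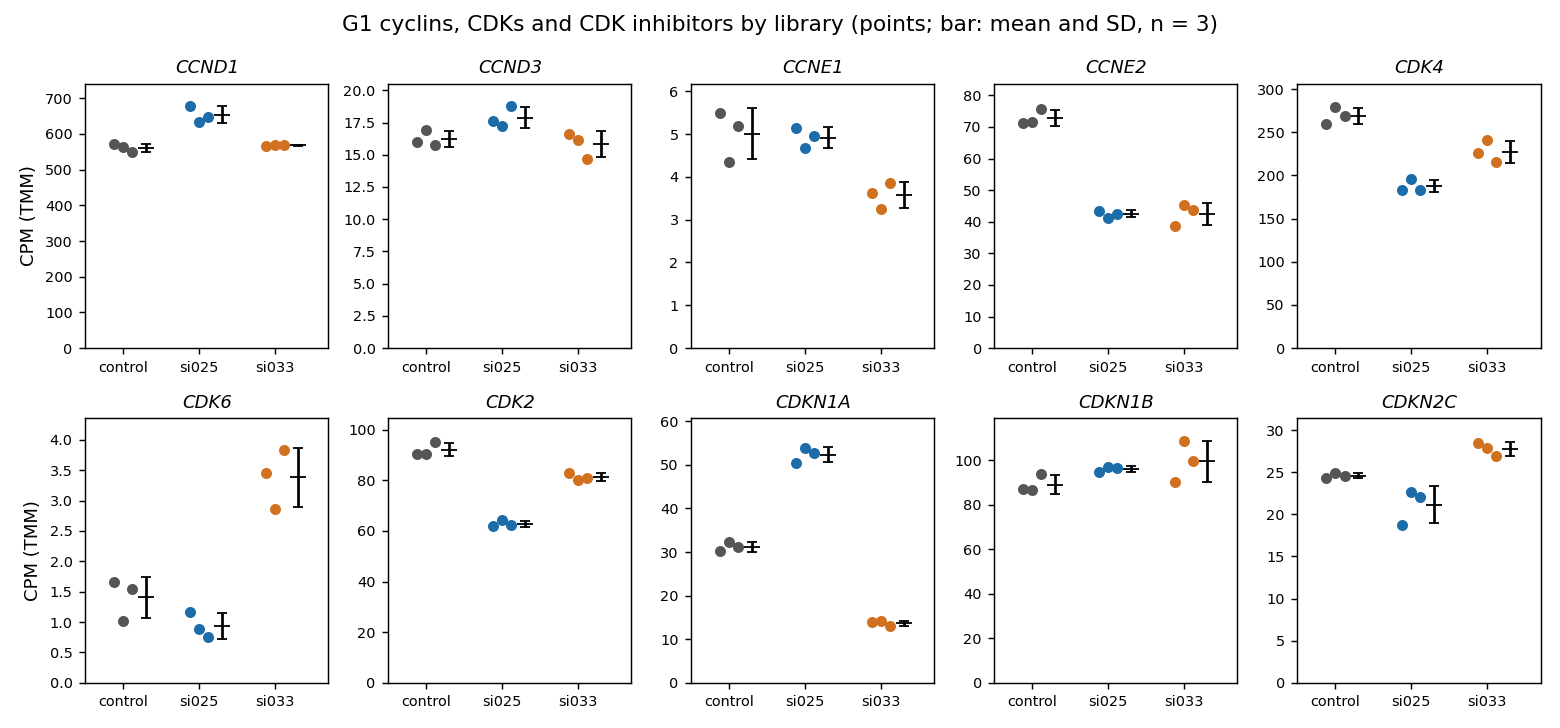
TMM-scaled CPM (vertical axis, from 0) of each of the 10 genes in the 3 control, 3 si025 and 3 si033 libraries, with points for libraries and bars for mean and SD (n = 3). CDKN1A sits above control in every si025 library and below it in every si033 library, CCNE2 falls to the same level with both siRNAs, and CDK6 is high in the si033 libraries alone.

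The kinase of the D-type cyclins, *CDK4*, fell with both siRNAs, and more with si025. *CDK4* lies on chr12:57747727-57752447 (hg38, minus strand) and was at 260, 279 and 269 CPM in the control libraries, 184, 195 and 183 CPM with si025 and 226, 241 and 215 CPM with si033. No si025 or si033 library reached the lowest control library, and no si025 library reached the lowest si033 library. The log2 fold change was −0.52 ± 0.05 (SE) with si025 (edgeR adjusted p = 2.24e-09), so that *CDK4* fell by 30.3%, and −0.25 ± 0.05 with si033 (edgeR adjusted p = 0.000124), a level that dropped by 15.8%. Between the siRNAs the difference was −0.27 ± 0.05 (edgeR adjusted p = 3.42e-05). *TSPAN31*, which overlaps *CDK4* on the opposite strand, moved by 0.47 on the log2 scale with si025 (called) and by 0.12 with si033 (not called), and the counting was strand-specific.

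The promoter of *CDK4* is shown because it held the most copies of the E-box among the member windows searched. The E-box is the DNA word bound by MYC-MAX dimers and other helix-loop-helix factors. The 300 bases below are the RefSeq window (GRCh38.p14, chr12:57752261-57752560, minus strand, read 5′ to 3′), from 250 bases before the transcript start to 50 bases after it. Capitals mark each CACGTG, a word that reads the same on both strands.
CDK4: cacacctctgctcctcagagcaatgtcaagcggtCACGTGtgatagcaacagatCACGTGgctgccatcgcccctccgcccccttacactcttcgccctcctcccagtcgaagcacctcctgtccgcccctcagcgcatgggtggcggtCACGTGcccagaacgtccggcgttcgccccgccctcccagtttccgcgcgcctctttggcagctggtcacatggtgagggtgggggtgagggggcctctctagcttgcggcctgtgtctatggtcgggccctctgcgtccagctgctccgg
The 3 copies begin 216, 196 and 101 bases before the start. The gene start in the count files lies 137 bases upstream of the transcript start used here, inside the window, so that the copy at 101 bases lies downstream of it and the others upstream. Of 35116 RefSeq promoter windows of this length, 7.256% held the word at least once and 33, or 0.09397%, held 3 or more copies. Windows were searched for 7 of the 10 genes, 12 windows in all, and the word was found in 4 of them. These were the *CDK4* window and a *CDK6* window (1 copy, 30 bases after the start). The others were a pair of *CDKN2C* windows (1 copy each, 220 and 69 bases before the start). The transcript starts of this pair, 50960745 and 50970245, differ from the *CDKN2C* gene start in the count files, 50968695. The *CDKN2C* window whose start, 50968706, lies 11 bases from that gene start held no copy. *CCND1*, *CCNE2* and *CDK2* had no entry. The E2F words TTTGGCGC and TTTCCCGC, searched on both strands, were in none of the member windows and in 0.6521% and 1.629% of all windows. A match describes letters and not occupancy. With si025 the 3 genes with the word were all called lower, although the *CDK6* and *CDKN2C* calls depended on single libraries. With si033 they did not move alike: *CDK4* was lower, while *CDK6* and *CDKN2C* were higher. Of all tested genes, 28.8% were called lower with si025. Of the genes without an entry, *CCNE2* and *CDK2* were called lower with si025 and *CCND1* higher. Whether the word had a part in any of these changes was not tested. The *CDKN2C* call with si033 was at the threshold (edgeR adjusted p = 0.0455). *MYC*, a gene upstream of cyclin D in the signal list used below, was at 444 ± 11.5 CPM in control, 258 ± 11.5 CPM with si025 and 310 ± 9.13 CPM with si033.

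*CDK6*, the paralog of *CDK4*, moved in opposite directions with the siRNAs, from a very low level. It lies on chr7:92604921-92836627 (minus strand) and had 14 to 111 counts per library, equal to 1.66, 1.01 and 1.55 CPM in control, 1.17, 0.893 and 0.752 CPM with si025 and 3.46, 2.86 and 3.83 CPM with si033. The si033 libraries stood above all others, and the si025 and control libraries overlapped. The log2 fold change was 1.28 ± 0.21 with si033 (edgeR adjusted p = 2.04e-05), 2.43-fold, and −0.65 ± 0.27 with si025 (edgeR adjusted p = 0.0397). The fall of *CDK6* with si025 rested on single libraries: the edgeR adjusted p became 0.0858 without si025 replicate 2, 0.179 without si025 replicate 3, 0.108 without control replicate 1 and 0.180 without control replicate 3. DESeq2 gave an adjusted p of 0.0939, and scaling by library totals alone gave 0.0595 in edgeR. Set against each other, the siRNAs differed by −1.93 ± 0.23 (edgeR adjusted p = 1.24e-07), larger in size than that of 98.5% of tested genes. Within the pair, per kilobase, *CDK6* made up 0.0874 ± 0.0239% in control, 0.0833 ± 0.0198% with si025 and 0.249 ± 0.0493% with si033. The exact permutation test of this share, two-sided, gave p = 0.9 for si025 and p = 0.1 for si033, and 0.1 is the smallest value that 3 libraries against 3 allow. The summed level of the pair, 134 ± 4.73 RPKM in control, 93.7 ± 3.43 RPKM with si025 and 114 ± 6.41 RPKM with si033, was thus set almost entirely by *CDK4*.

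*CDK2*, the kinase of the E-type cyclins, followed the same order as *CDK4*. It lies on chr12:55966769-55972789 (plus strand) and was at 90.5, 90.5 and 95.02 CPM in control, 62.0, 64.2 and 62.4 CPM with si025 and 83.0, 80.0 and 81.0 CPM with si033. The 3 groups did not overlap. *CDK2* fell by 31.8% with si025 (log2 −0.55 ± 0.05, edgeR adjusted p = 9.58e-10) and by less with si033 (log2 −0.18 ± 0.05, edgeR adjusted p = 0.00240), and the siRNAs differed by −0.37 ± 0.05 (edgeR adjusted p = 6.51e-07). Over the 9 libraries the log2 CPM of *CDK2* and *CDK4* had a Pearson r of 0.954, the highest of any member pair, which describes the 3 groups more than variation within them.

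The cyclin partners of *CDK4* did not fall with it. *CCND1*, cyclin D1, lies on chr11:69641105-69654474 (plus strand) and was at 571, 564 and 548 CPM in control, 679, 633 and 648 CPM with si025 and 565, 570 and 569 CPM with si033. Every si025 library was above every other library, and the si033 libraries lay within the control range. *CCND1* rose 1.16-fold with si025 (log2 0.22 ± 0.04, edgeR adjusted p = 4.23e-05). With si033 the log2 difference was 0.02, with a 95% interval from −0.06 to 0.10 (edgeR adjusted p = 0.717), and the siRNAs differed by 0.20 ± 0.04 (edgeR adjusted p = 0.000120). With an offset for gene length the log2 values of *CCND1* were smaller, 0.12 for si025 against control (edgeR adjusted p = 0.00274) and 0.12 between the siRNAs (edgeR adjusted p = 0.00266), both still called. The log2 CPM of *CCND1* and *CDK2* ran in opposite directions over the 9 libraries (Pearson r = −0.949, a description).

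*CCND3*, cyclin D3, lies on chr6:41934933-42048894 (minus strand) and was at 16.0, 16.9 and 15.7 CPM in control, 17.6, 17.2 and 18.8 CPM with si025 and 16.6, 16.2 and 14.7 CPM with si033. The si025 libraries were above all others, yet the log2 difference of 0.15 ± 0.08 was not called (edgeR adjusted p = 0.0933), nor was −0.05 ± 0.08 with si033 (edgeR adjusted p = 0.636). The siRNAs differed by 0.20 ± 0.08 (edgeR adjusted p = 0.0297), a call lost without si025 replicate 3 (edgeR adjusted p = 0.156) or si033 replicate 3 (edgeR adjusted p = 0.237). *CCND2*, the remaining D-type cyclin, had 0 to 2 counts per library and was not tested. Cyclin D1 accordingly made up 96.2 ± 0.130% of the D-type cyclin signal per kilobase in control, 96.4 ± 0.198% with si025 and 96.4 ± 0.234% with si033, and the summed D-type level was 136 ± 2.76, 158 ± 5.52 and 137 ± 0.433 RPKM in these groups.

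Of the E-type cyclins, *CCNE2* fell by nearly the same amount with both siRNAs. It lies on chr8:94880224-94896671 (minus strand) and was at 71.4, 71.5 and 75.7 CPM in control, 43.5, 41.3 and 42.6 CPM with si025 and 38.6, 45.3 and 43.6 CPM with si033. All 6 libraries with an *IGF1R-AS1* siRNA were far below the lowest control library and overlapped each other. *CCNE2* fell by 42.0% with si025 (log2 −0.79 ± 0.06, edgeR adjusted p = 5.23e-11) and by 41.6% with si033 (log2 −0.78 ± 0.06, edgeR adjusted p = 1.08e-10). Between the siRNAs the difference was −0.01, with a 95% interval from −0.14 to 0.12 (edgeR adjusted p = 0.900). *INTS8* and *NDUFAF6*, which overlap *CCNE2* on the opposite strand, moved by 0.03 (not called) and 0.13 (called) with si025 and by −0.21 each (both called) with si033 on the log2 scale.

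*CCNE1*, the other E-type cyclin, was scarce and behaved differently. It lies on chr19:29811994-29824317 (plus strand) and had 42 to 134 counts, equal to 5.50, 4.35 and 5.18 CPM in control, 5.14, 4.66 and 4.95 CPM with si025 and 3.63, 3.25 and 3.87 CPM with si033. The si033 libraries lay below all others, and the si025 libraries lay inside the control range. *CCNE1* fell by 27.5% with si033 (log2 −0.46 ± 0.15, edgeR adjusted p = 0.0108), a call that was lost without control replicate 3 (edgeR adjusted p = 0.0557). With si025 the log2 difference was −0.03, with a 95% interval from −0.32 to 0.26 (edgeR adjusted p = 0.855), so that a change of that size was not detectable at this depth. The siRNAs differed by 0.43 ± 0.15 (edgeR adjusted p = 0.0140).

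The balance between the E-type cyclins, which does not depend on scaling between libraries, shifted accordingly. *CCNE1* made up 13.2, 10.7 and 11.9% of the pair per kilobase in control, 19.0, 18.3 and 18.7% with si025 and 15.7, 12.4 and 14.9% with si033. The si025 shares were above all others, and the si033 shares overlapped those of control. The exact permutation test, two-sided, gave p = 0.1 for si025 against control, p = 0.2 for si033 against control and p = 0.1 between the siRNAs. The summed E-type level was 21.4 ± 0.752 RPKM in control, 13.5 ± 0.406 RPKM with si025 and 12.8 ± 0.851 RPKM with si033.

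Among the inhibitors, *CDKN1A* moved furthest, and in opposite directions with the siRNAs. It encodes p21, a CIP/KIP inhibitor, and lies on chr6:36676460-36687339 (plus strand). Its level was 30.1, 32.4 and 31.1 CPM in control, 50.5, 53.9 and 52.7 CPM with si025 and 13.8, 14.2 and 13.0 CPM with si033. The 3 groups were far apart, with si025 above control and si033 below it in every library. *CDKN1A* rose 1.68-fold with si025 (log2 0.75 ± 0.06, edgeR adjusted p = 9.48e-11) and fell by 56.6% with si033 (log2 −1.20 ± 0.07, edgeR adjusted p = 9.57e-13). The level with si025 was 3.87-fold that with si033 (log2 1.95 ± 0.06, edgeR adjusted p = 2.37e-17), a difference larger in size than that of 98.6% of tested genes. The summed luminal and fibroblast markers given above were ordered over the groups as *CDKN1A* was, and their part in this result was not tested.

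The promoter of *CDKN1A* is shown because the gene was called in opposite directions with clearly separated libraries. The RefSeq window (GRCh38.p14, chr6:36678464-36678763, plus strand, 5′ to 3′) holds 250 bases before and 50 bases after the transcript start of this table, which lies 2254 bases inside the gene start of the count files. Capitals mark the GC box, written GGGCGG on the printed strand, the word bound by SP1 and related zinc finger factors.
CDKN1A: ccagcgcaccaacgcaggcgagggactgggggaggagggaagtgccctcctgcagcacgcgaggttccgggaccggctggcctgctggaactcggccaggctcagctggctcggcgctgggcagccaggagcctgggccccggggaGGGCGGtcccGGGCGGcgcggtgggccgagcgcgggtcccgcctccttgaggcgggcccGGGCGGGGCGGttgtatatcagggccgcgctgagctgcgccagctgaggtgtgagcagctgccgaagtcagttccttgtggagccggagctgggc
The window held 4 copies in 3 capital runs, since a pair of them overlap. GC boxes were common: 44.95% of all 35116 windows held the word on either strand. So did 9 of the 12 member windows, at least 1 for each of the 7 genes searched. The E-box and both E2F words were not found in the *CDKN1A* window.

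*CDKN1B*, which encodes the CIP/KIP inhibitor p27, changed little beside *CDKN1A*. It lies on chr12:12717270-12722383 (plus strand) and was at 87.0, 86.6 and 93.9 CPM in control, 94.7, 97.1 and 96.7 CPM with si025 and 90.4, 109 and 99.6 CPM with si033. The si025 libraries were all above control, and the si033 libraries were more spread and overlapped control. With si033 the log2 fold change was 0.16 ± 0.06 (edgeR adjusted p = 0.0250), and with si025 it was 0.10 ± 0.06 (edgeR adjusted p = 0.116). The *CDKN1B* call with si033 was lost without si033 replicate 2 (edgeR adjusted p = 0.172), si033 replicate 3 (0.0638), control replicate 1 (0.0689) or control replicate 2 (0.0850). The siRNAs differed by −0.05, with a 95% interval from −0.17 to 0.07 (edgeR adjusted p = 0.449). *CDKN1C*, the remaining CIP/KIP gene, had 0 to 1 counts per library and was not tested.

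Within the CIP/KIP genes, p21 thus changed its share with both siRNAs. *CDKN1A* made up 24.9, 26.4 and 24.1% of their counts per kilobase in control, 33.7, 34.7 and 34.3% with si025 and 12.8, 11.1 and 11.1% with si033. None of the 3 groups overlapped, and each exact permutation test, two-sided, gave p = 0.1, the smallest possible. The summed CIP/KIP level was 47.2 ± 1.64 RPKM in control, 58.0 ± 1.14 RPKM with si025 and 44.7 ± 3.74 RPKM with si033, and the si033 libraries overlapped those of control.

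**Figure D2:**
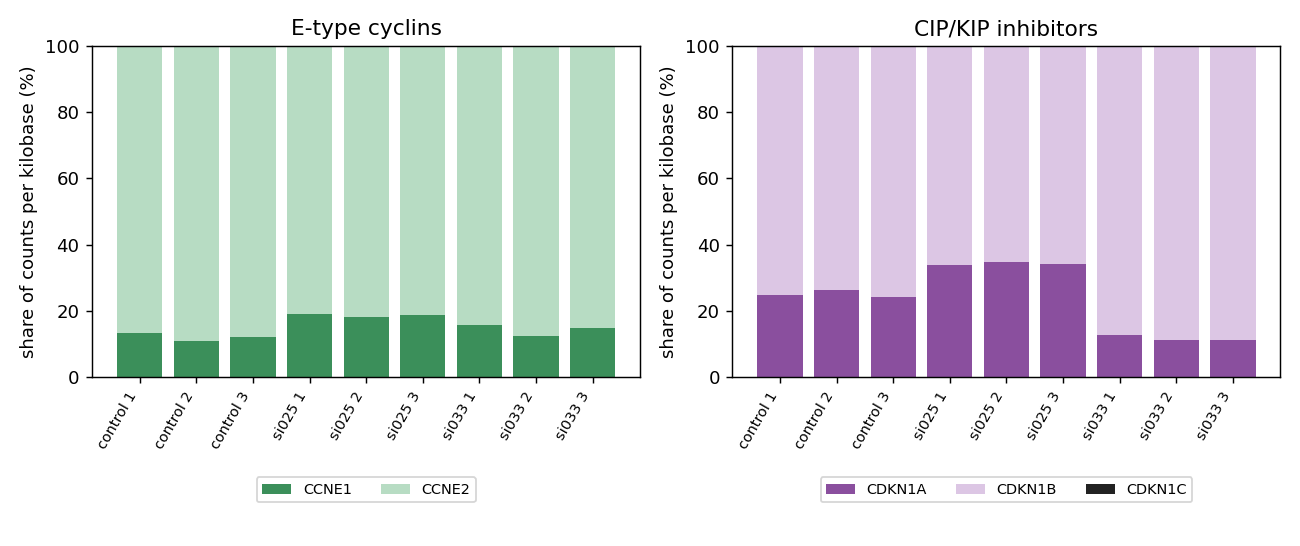
Shares (%, vertical axis) of counts per kilobase within the E-type cyclins (left) and the CIP/KIP inhibitors (right), with 1 stacked bar per library. CCNE1 takes 18.3 to 19.0% of the E-type signal in the si025 libraries against 10.7 to 13.2% in control, and CDKN1A takes 33.7 to 34.7% of the CIP/KIP signal with si025 against 11.1 to 12.8% with si033.

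*CDKN2C*, which encodes the INK4 inhibitor p18, moved slightly and in opposite directions. It lies on chr1:50968695-50974637 (plus strand) and was at 24.4, 24.9 and 24.5 CPM in control, 18.7, 22.7 and 22.1 CPM with si025 and 28.5, 27.9 and 26.9 CPM with si033. The 3 groups did not overlap, with si025 lowest and si033 highest. *CDKN2C* fell by 13.0% with si025 (log2 −0.20 ± 0.07, edgeR adjusted p = 0.0180), a call lost without si025 replicate 1 (edgeR adjusted p = 0.0978). The rise with si033 was at the threshold (log2 0.17 ± 0.07, edgeR adjusted p = 0.0455), and leaving out any 1 of the si033 or control libraries, or si025 replicate 3, ended the call, with edgeR adjusted p from 0.0536 to 0.104. DESeq2 gave an adjusted p of 0.114 for the same comparison. The direct difference between the siRNAs, −0.37 ± 0.07 (edgeR adjusted p = 8.59e-05), did not depend on a single library.

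Compared with each other, the siRNAs differed in 8 of the 10 genes, 4 higher with si025 (*CCND1*, *CCND3*, *CCNE1* and *CDKN1A*) and 4 lower (*CDK2*, *CDK4*, *CDK6* and *CDKN2C*). Among all tested genes 60.9% were called in this comparison, 31.2% higher and 29.7% lower. The libraries of 8 members did not overlap between the siRNAs, as for 62.6% of all tested genes. Against the mean of both siRNAs, 6 of the 10 members were called, beside 58.6% of all tested genes (of which 50.7% were higher, and 60.9% when scaled by library totals alone). *CCNE2* at −0.78, *CDK4* at −0.38, *CDK2* at −0.37 and *CDKN1A* at −0.23 were lower, and *CDKN1B* at 0.13 and *CCND1* at 0.12 were higher on the log2 scale. With the gene length offset *CCND1* (0.061, edgeR adjusted p = 0.0753) and *CDKN1B* (0.087, edgeR adjusted p = 0.121) were no longer called, and DESeq2 gave an adjusted p of 0.0509 for *CDKN1B*. The value for *CDKN1A* averages opposite changes and describes neither siRNA. When the 6 knockdown libraries were fitted as 1 group, 3 members were called and *CDKN1A* stood at 0.08 (edgeR adjusted p = 0.921). *CDKN1B* lost its call against the mean of both without si033 replicate 2 (edgeR adjusted p = 0.0723), control replicate 1 (0.1003) or control replicate 2 (0.127).

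**Figure D3:**
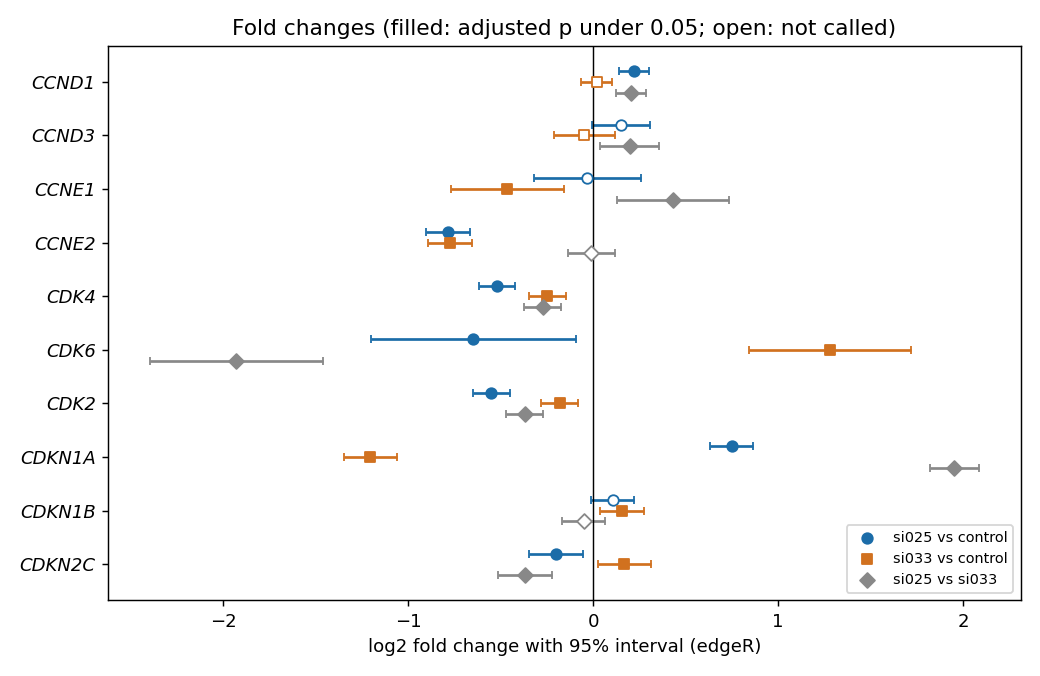
Log2 fold changes (horizontal axis) of the 10 genes with 95% intervals from edgeR, for si025 against control (circles), si033 against control (squares) and si025 against si033 (diamonds), filled where the adjusted p was under 0.05. The CCNE2 estimates for both siRNAs coincide near −0.78, whereas those of CDKN1A (0.75 and −1.20) and CDK6 (−0.65 and 1.28) lie on opposite sides of 0.

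For the 3 members whose group means ranged most widely, *CDKN1A*, *CDK6* and *CCNE2*, the other tested genes with the most similar log2 CPM over the 9 libraries were listed, as a description in which the libraries share their groups. Closest to *CDKN1A* were *ARG2* (Pearson r = 0.998), *SNX25* (0.998) and *PLA1A* (0.997). *ARG2*, a mitochondrial arginase, was at 82.5 ± 2.05 CPM in control, 142 ± 6.78 CPM with si025 and 38.3 ± 1.40 CPM with si033, which is the order of *CDKN1A*. Closest to *CDK6* were *M6PR* (0.983), *KLHL3* (0.980) and *WNT8B* (0.973). *M6PR*, a receptor that sorts lysosomal enzymes, was at 66.0 ± 4.67, 59.6 ± 1.65 and 82.1 ± 1.26 CPM in the same order of groups. Closest to *CCNE2* were *NFYA* (0.994), *CKAP2* (0.993) and *HMMR* (0.991), of which *NFYA* encodes a CCAAT-binding factor, while *CKAP2* and *HMMR* are mitotic spindle genes. *HMMR* was at 70.7 ± 4.12 CPM in control, 37.9 ± 1.26 CPM with si025 and 40.2 ± 3.91 CPM with si033, so that, as for *CCNE2*, both siRNAs reached about the same level. Among the members themselves, *CDK6* and *CDKN1A* ran most strongly against each other (Pearson r = −0.960).

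The genes that G1 kinases act on, or that act on them, were followed in lists of pathway genes chosen with earlier results of these data known. Of 20 targets of the G1/S transition, all 20 were lower with si025 and 18 with si033, with median log2 fold changes of −0.82 and −0.37, beside 0.02 and 0.00 over all tested genes. The shares called in each list below stand against the 61.7% and 54.8% of all tested genes given above. All 20 were also lower with si025 than with si033, the order in which *CDK4* and *CDK2* stood. So were all 14 genes of the G2 and mitosis list that follows, beside 29.7% of all tested genes. *MCM3*, a subunit of the replicative helicase, was at −1.37 and −0.46 with si025 and si033, and the replication licensing gene *CDC6* at −1.07 and −0.73. Of 14 genes of G2 and mitosis, most of them cyclins and kinases, all 14 were lower with si025 and 12 with si033 (medians −0.75 and −0.45). *AURKB* was at −1.05 and −0.51 and *CCNA2*, cyclin A, which is also in the G1/S list, at −0.89 and −0.58, while *AURKA* was lower with si025 (−0.14) and higher with si033 (0.16).

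Of 17 pocket protein and E2F genes, 12 were lower and 1 higher with si025, and 7 were lower and 1 higher with si033 (medians −0.30 and −0.14), 76.5% and 47.1% called. *E2F8*, a repressor E2F, was at −0.92 and −0.52, and *LIN9*, of the complex that controls mitotic genes, at −0.51 and −0.63. The count with si033 was the least steady of the lists: 8 genes called became 5 without control replicate 2 and 13 with an offset for gene length. Of the 4 tested genes among the other G1 cyclins and CDK inhibitors, *CDKN2D* (p19) was at −0.79 and −0.34 and the phosphatase gene *CDKN3* at −0.66 and −0.44, all called, though 1 of these calls with si033 was lost without control replicate 3. *CDKN2A*, outside the naming rule and chosen after its values were seen, rose with si025 (0.88, called) and stood at −0.35 with si033 (not called). Its reads cover both p16 and ARF transcripts.

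Of 8 tested genes that activate or restrain CDKs, which include kinases, CDC25 phosphatases and a chaperone, 6 were lower and 0 higher with each siRNA, 75% of the list in both comparisons (medians −0.40 and −0.33). The inhibitory kinase genes *WEE1* (−0.89 and −0.71) and *PKMYT1* (−0.62 and −0.39) fell with both. Of 16 genes for the turnover of G1 regulators, si025 gave 7 lower and 2 higher and si033 gave 8 lower and 2 higher (medians −0.13 and −0.16). The shares called, 56.25% and 62.5%, lay near those of all tested genes. *SKP2*, the F-box protein that marks p27 for degradation (−1.07 and −0.30), and *DTL*, a subunit of the ligase for p21 and CDT1 (−0.90 and −0.36), fell with both. The core ligase gene *RBX1* was higher with both (0.22 and 0.39), and *FBXW7*, the F-box protein for cyclin E, was higher with si025 (0.25) and lower with si033 (−0.19).

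Upstream of the cyclins, the lists were mixed. Of 21 tested mitogen and growth signal genes, si025 gave 7 higher and 5 lower and si033 gave 11 higher and 5 lower (medians −0.00 and 0.14), 57.1% and 76.2% called. The receptor genes *EGFR* (2.08 and 1.15) and *ERBB3* (0.66 and 1.15) rose, and *MYC* (−0.78 and −0.52) fell. Of 15 regulators of the CIP/KIP genes, si025 gave 5 higher and 6 lower and si033 gave 4 higher and 1 lower (medians −0.08 and 0.13), 73.3% and 33.3% called. The TGF-beta pathway genes *TGFBR1* (0.95 and 0.64) and *SMAD3* (0.42 and 0.43) rose, and *TFAP4*, which encodes a repressor of *CDKN1A*, fell (−0.38 and −0.59).

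CDKs and cyclins with roles outside G1 were mixed as well. Of 12 tested transcriptional CDKs and cyclins, si025 gave 3 higher and 5 lower and si033 gave 2 higher and 7 lower (medians −0.09 and −0.19), 66.7% and 75% called. The Mediator kinase gene *CDK8* (1.12 and 0.67) and *CDK13* (0.22 and 0.25) rose, and the *CDK8* paralog *CDK19* (−0.33 and −0.57) and *CCNT1* (−0.42 and −0.15) fell. Of 17 atypical CDKs and cyclins, si025 gave 8 higher and 4 lower and si033 gave 6 higher and 4 lower (medians 0.11 and 0.00), 70.6% and 58.8% called. *CCNY* (0.91 and 1.19) and *CDK18* (0.70 and 0.39) rose with both, *CDK5RAP3* (−0.41 and −0.38) fell with both, and *CCNJ* was higher with si025 (0.23) and lower with si033 (−0.63). Listed genes too low to test were *CDK7* (1 to 12 counts per library), *HRAS* (0 to 42) and *MYCN* (0 to 4), beside *CCND2* and *CDKN1C*. By contrast, *CCNH* and *MNAT1*, listed with *CDK7* as CDK activators, were at 25.2 and 24.1 CPM in control. Whether the low counts of *CDK7* and *HRAS* reflect low expression was not tested.

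**Figure D4:**
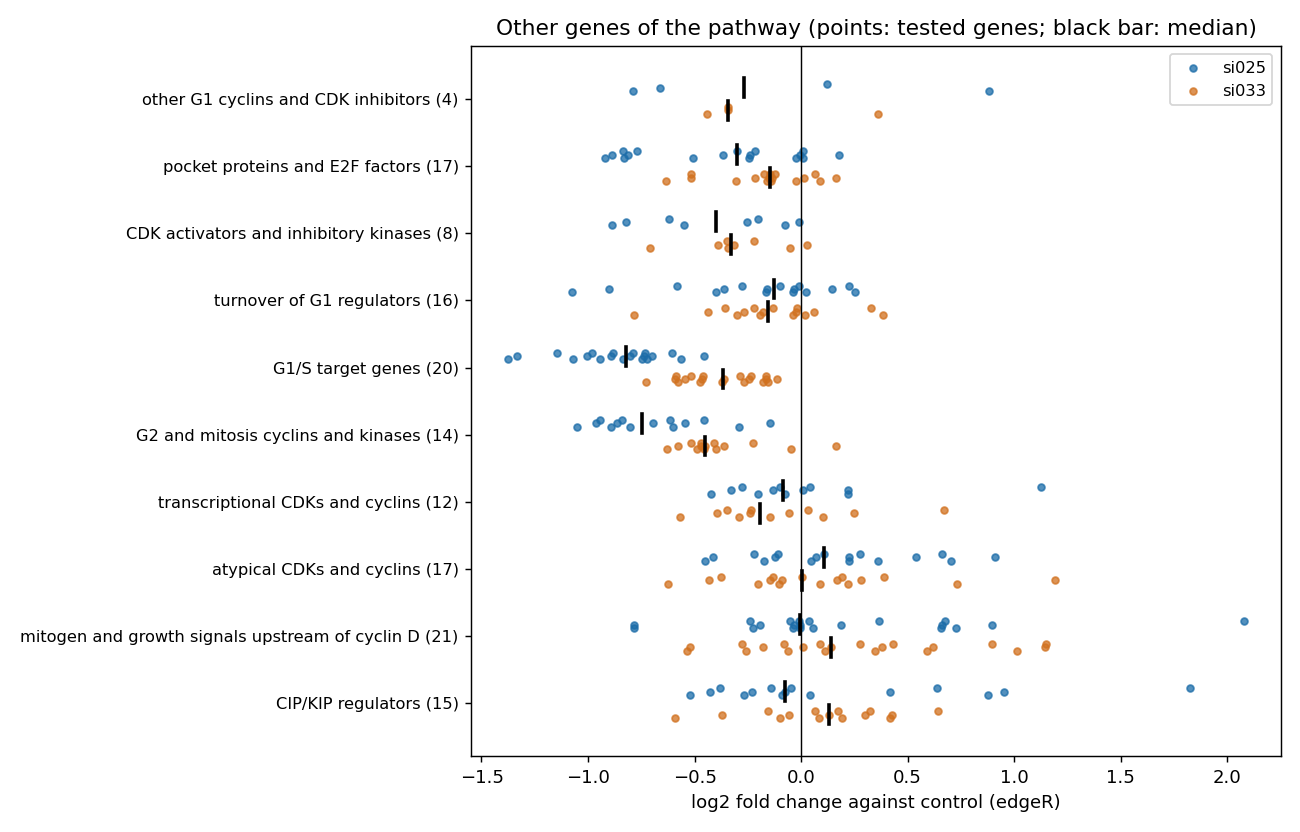
Log2 fold change against control (horizontal axis, edgeR) of each tested gene in 10 lists of pathway genes (number tested in brackets), with si025 in blue above si033 in orange and a black bar at each median. The G1/S targets (medians −0.82 and −0.37) and the G2 and mitosis genes (−0.75 and −0.45) lie almost wholly below 0, whereas upstream signals and CIP/KIP regulators spread over both sides.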

How the data were processed

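RNA had been sequenced from 9 VCaP samples, assigned to control, si025 or si033 by their titles. According to the methods, the authors aligned paired-end reads to hg38 with HISAT2, for which the submitters' processing notes give version 2.1.0. Per the file headers, the authors made the deposited counts with featureCounts 1.5.2, as whole read pairs over the exons of each gene symbol, reverse-stranded and not normalized. The study names another HISAT2 version elsewhere. The headers name a RefSeq annotation and the methods GENCODE, and the labels and methods name different RNA extraction kits. Pairs mapping to several places were not counted under that program's defaults, so *CDK4* and *CCND3*, which have pseudogenes, are less certain.

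The counts of 12810 of 19918 genes passed the filterByExpr defaults (0 entries named no gene). All 9 libraries were fitted in edgeR 4.0.16 (R 4.3.3) with TMM scaling, 3 group means and the quasi-likelihood test, with Benjamini-Hochberg adjustment over every tested gene. A gene was called at an adjusted p under 0.05. Gene lengths in the files gave the values per kilobase. Correlations used log2 CPM with a prior count of 2. The code was tested on simulated data. The chi-square per degree of freedom between libraries of a group was 1.72 to 5.09, so no pair was counted as 1 library.

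The 10 genes and all lists were chosen with earlier results of these data known. Of each list, the genes called with both siRNAs and with the highest and lowest mean log2 fold change (up to 2 each way) are named, except where a gene or list is not reported here, and for 3 members the 3 genes with the highest Pearson r. Alternatives were other scalings, DESeq2 1.42.0, limma-voom (limma 3.58.1), no filter, 2-group fits, a gene length offset, a replicate block and leaving out each library. Depth limited *CDK6* and *CCNE1* most. Figures were drawn with matplotlib 3.10.9.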

Additional observations from a re-analysis of the deposited data

Results flagged for a closer look

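For 8 of the 10 genes the response to si025 differed from the response to si033 when the difference itself was tested in edgeR (adjusted p under 0.05). Of all tested genes, 60.9% were called in the same comparison. The log2 difference, si025 minus si033, was 1.95 for *CDKN1A*, −1.93 for *CDK6*, 0.43 for *CCNE1*, −0.37 for *CDK2*, −0.37 for *CDKN2C*, −0.27 for *CDK4*, 0.20 for *CCND1* and 0.20 for *CCND3*. The *CCND3* call was lost with the gene length offset, with DESeq2, and without si025 replicate 3 or si033 replicate 3. For *CDKN1A*, *CDK6* and *CDKN2C* the responses were also called in opposite directions against control, although the *CDK6* and *CDKN2C* calls of one or both siRNAs depended on single libraries. Both siRNAs were compared with the same control libraries, which cancel in this difference.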

How the results depend on the processing

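Each test was repeated under 18 alternatives. The calls of *CCND1*, *CCNE2*, *CDK2*, *CDK4* and *CDKN1A* with si025, and of *CCNE2*, *CDK2*, *CDK4*, *CDK6* and *CDKN1A* with si033, kept direction and threshold under all 18. The cause of each change below was not tested. With library totals only, the si025 log2 values of *CCND3* (0.20) and *CDKN1B* (0.16) were called, *CDK6* (−0.60) and *CDKN2C* (−0.15) were not, *CCNE1* was 0.019, *CCND3* with si033 was 0.0078, and *CDKN2C* over both siRNAs was 0.037 (0.0091 with upper quartile scaling). With DESeq2, *CDK6* with si025 (−0.65), *CDKN2C* with si033 (0.17), *CDKN1B* over both (0.12) and *CCND3* between siRNAs (0.18) were not called, nor was *CDKN2C* with si033 under limma-voom (0.17) or no filter (0.16). With the gene length offset, *CCND1* was −0.00086 with si033 and 0.061 over both, *CDKN1B* over both was 0.087 and *CCND3* between siRNAs 0.14, the last 3 not called, and 13 pocket and E2F genes were called with si033. With the knockdown libraries as 1 group, 3 members were called, *CCND1* (0.12) and *CDKN1B* (0.13) were not, *CDKN1A* was 0.085, and the list counts fell to 6 (pocket and E2F), 3 (turnover), 5 (atypical), 8 (upstream signals) and 3 (CIP/KIP regulators). Leaving out 1 library at a time gave log2 ranges with si025 of −0.12 to 0.019 (*CCNE1*), −0.81 to −0.50 (*CDK6*) and −0.25 to −0.14 (*CDKN2C*). With si033 they were −0.075 to 0.024 (*CCND3*), −0.54 to −0.40 (*CCNE1*), 0.094 to 0.22 (*CDKN1B*) and 0.16 to 0.20 (*CDKN2C*). Over both siRNAs they were 0.098 to 0.17 (*CDKN1B*) and −0.040 to 0.016 (*CDKN2C*), and between siRNAs 0.13 to 0.23 (*CCND3*), −0.075 to 0.025 (*CCNE2*) and −0.12 to 0.0084 (*CDKN1B*). Called genes with si033 ranged from 1 to 2 (other G1 genes) and 5 to 8 (pocket and E2F). As shares of raw counts, *CCND1* made up 97.2, 97.3 and 97.3%, *CDK4* 99.5, 99.5 and 98.5% and *CCNE1* 6.43, 10.4 and 7.80% in control, si025 and si033, and *CDKN1A* 35.2% with si025. Same-numbered libraries did not pair (correlations of deviations −0.0214 to 0.0729, and 0 of 9 libraries closest to their own number). With the replicate number as a block, 7, 8, 6 and 8 members were called for si025, si033, both and between siRNAs, and 8000, 7094, 7587 and 7843 of all genes. Depth limited *CDK6* (14 to 111 counts) and *CCNE1* (42 to 134).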
